A study of Oncorhynchus mykiss with 48 samples.

Results

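The 200 genes described here were the steadiest transcripts in control livers of rainbow trout (Oncorhynchus mykiss), and the question was whether they stayed steady in livers of fish with a bisphenol A (BPA) history. They were selected on measured values. The fragments of each gene were scaled to the library total of each fish (CPM, a share of all fragments), the 100 genes with the highest mean CPM over the 16 Control fish were set aside, and of the 7961 remaining genes with a mean of at least 10 CPM, called eligible genes here, the 200 with the smallest standard deviation (SD) of log2(CPM + 0.5) over the 16 Control fish were kept. The tables held 46585 genes, and 46568 of these were free of the HIDATA status with which the authors' software marks loci holding too many fragments to process. The low SD of the 200 genes in Control fish is therefore given by the choice and is not a result.

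Liver RNA was sequenced from 48 fish, 4 in each of 12 groups. Pools of unfertilised eggs were held in ovarian fluid for 3 h with 0 (Control, ethanol vehicle only), 3 or 30 mg/l BPA, which left 0, 4 or 40 ng BPA per egg (Control, BPA4, BPA40), and were then fertilised with milt of untreated males. The resulting F1 fish were sampled at 140 and 365 days post fertilisation (dpf). F2 fish, from eggs of F1 females and milt of untreated males, were sampled at 112 and 365 dpf. For F1 BPA40 fish some labels give 3 mg/l in place of 30 mg/l, and the titles of the early F2 fish give 140 dpf where their other labels give 112 dpf, the age used here. All fish, Control fish included, were reared in clean water. Each treatment was kept in 3 tanks in F1 but in a single tank in F2, where tank and treatment cannot be told apart. The labels name no tank, sequencing date or batch for any fish.

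BPA is an industrial monomer with oestrogen-like activity, and the liver of egg-laying fish is a main target of oestrogens, since it makes the yolk precursor vitellogenin under their control. Sequencing and PCR studies of liver commonly rest on transcripts whose level changes little between animals, because the level of any other transcript is expressed relative to them or to the library total. A CPM value is a share of the library, so a transcript with an unchanged number of copies per cell has another CPM when the rest of the library changes, and in whole liver fewer cells of a type and less RNA per cell cannot be told apart.

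The tables give the genes only by identifiers of the trout genome annotation (GSONMT numbers). None of the 46585 identifiers (0) was found in the RefSeq gene table with its 72772 trout genes, so no gene name, function, protein or promoter is given for any of the 200 genes, and the labelled tissue could not be checked against liver markers here.

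Over the 48 fish the assigned fragments totalled 6244010 to 18668663 per fish (median 12944810.5). The shallowest library was F2 112 dpf BPA4 replicate 1, and all 12 libraries of F2 112 dpf had a scaling factor below 1 by the trimmed mean of M-values (TMM), a method that scales each library so that most genes do not move. In 3 fish of F2 112 dpf, BPA4 replicate 1 and BPA40 replicates 0 and 1, the median of the 200 genes lay below that of the other fish of this time point. Not every gene was low in them. The main counts are also given without these 3 fish. They were picked after seeing the data, for their low values, and no Control fish was left out. A smaller spread of the members in BPA fish without them is therefore given in part by this step. F1 365 dpf BPA40 replicate 3, in which the genes' median was low too, was kept. The 200 genes had 12 fragments or more in every BPA fish and 70 or more in every Control fish. No pair of fish of a group looked like 1 library deposited more than once (72 pairs, chi-square per degree of freedom of 20.6 or more).

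By CPM, members of the list were mid-level among the eligible genes, whose floor of 10 CPM is part of the rule. Their mean over Control fish ran from 10.0 to 1601 CPM (median 25.2, the same as in all eligible genes, 25.2). Per length, their Control means ran from 1.27 to 666 FPKM (fragments scaled to transcript length and library total), with a median of 7.48 FPKM against 10.3 FPKM in all eligible genes. The ratio of CPM to FPKM, which grows with transcript length, had a median of 3.34 in the members and 2.67 in all eligible genes. At the same share of fragments the list thus leaned to lower FPKM, a difference for which no test was made.

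The highest member per length was GSONMT00002192001, with mean levels of 666 FPKM in Control, 718 FPKM in BPA4 and 714 FPKM in BPA40 fish. Its CPM ran from 1359 to 2152 (median 1527) in Control, from 1213 to 2520 (median 1498) in BPA4 and from 1168 to 2607 (median 1752) in BPA40 fish, and the 3 ranges overlapped. The lowest per length was GSONMT00073201001, with 1.27 FPKM in Control, 1.24 FPKM in BPA4 and 1.16 FPKM in BPA40 fish. Its CPM ran from 11.5 to 18.8 in Control, from 7.05 to 17.3 in BPA4 and from 5.08 to 16.5 in BPA40 fish. In both BPA treatments the lowest value of this gene belonged to replicate 1 of F2 112 dpf.

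The SD over the 16 Control fish, by which the members were chosen, was between 0.118 and 0.225 (median 0.193), against a median of 0.651 in the 7961 eligible genes. The last genes inside the list were GSONMT00071420001 and GSONMT00002541001, both with an SD of 0.225, and the first outside were GSONMT00044417001 and GSONMT00081756001, also with 0.225, so the edge of the list falls within a run of almost equal values. GSONMT00002541001, just inside, had an SD of 0.361 in BPA4 and 0.570 in BPA40 fish, whereas GSONMT00044417001, just outside, had 0.314 and 0.306 there.

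The list depends strongly on how the libraries are scaled. The same rule on TMM-scaled CPM chose 200 genes of which only 16 were on the list used here. On FPKM 63 genes were shared, with the fragments of the HIDATA genes kept in the totals 171, and 62 were shared when each time point's mean was taken away first. A pseudocount of 1 left 196 shared genes, and a minimum of 20 CPM left 119. The genes are therefore steady as a share of all fragments over 2 ages and 2 generations, and the rule on TMM-scaled CPM or FPKM picked mostly other genes.

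In BPA fish, which the choice did not use, the 200 genes stayed among the steadier genes of the liver but were less steady than in the Control fish they were chosen on. The median SD over 16 fish was 0.309 in BPA4 (range 0.109 to 0.770) against 0.682 in all eligible genes, and 0.290 in BPA40 (range 0.128 to 0.613) against 0.645 in all eligible genes. A higher SD than in Control was found for 185 members in BPA4 and for 185 in BPA40 fish. Choosing the smallest values in Control fixes this direction in part, so it was not tested. Without the 3 fish named above the numbers were 169 in BPA4 and 162 in BPA40.

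Of the 200 members, 138 (69.0%) lay in the lowest 10% of SDs of all eligible genes in BPA4 fish and also 138 (69.0%) in BPA40 fish. When these fish were left out 161 were there in BPA4 and 150 in BPA40. For 200 genes chosen anew with time point means removed, and so mostly other genes, the number was 84 in BPA4. For the list as chosen, it was 87 in BPA40 on TMM-scaled CPM. With all fish, 113 members were there in both treatments, 25 only in BPA4, 25 only in BPA40 and 37 in neither. The median of all eligible SDs was passed by 3 members in BPA4 and by 0 in BPA40, and 0 reached the highest 25% in either. An SD under 0.5 was found for 179 members in BPA4 (28.7% of eligible genes) and for 184 in BPA40 (32.1% of eligible genes), and without the 3 fish for 200 in BPA4 (38.2%) and 198 in BPA40 (44.1%).

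As a fold range, the highest over the lowest of 16 CPM values, members had a median of 1.62 in Control, 2.19 in BPA4 and 2.13 in BPA40 fish. Less than 2-fold between the extreme fish were 69 members in BPA4 (3.24% of eligible genes) and 79 in BPA40 (4.27% of eligible genes), and without the 3 fish 123 in BPA4 (7.27%) and 131 in BPA40 (9.31%). The rule applied to BPA4 fish alone picked 66 of the members, and applied to BPA40 fish alone it picked 58. Its picks in BPA4 and in BPA40 shared 79 genes, and 38 genes were picked in all 3 treatments. With the 3 fish left out, the rule picked 78 of the members in BPA4 and 66 in BPA40, with 62 picks shared by both and 36 by all 3 treatments.

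**Figure D1:**
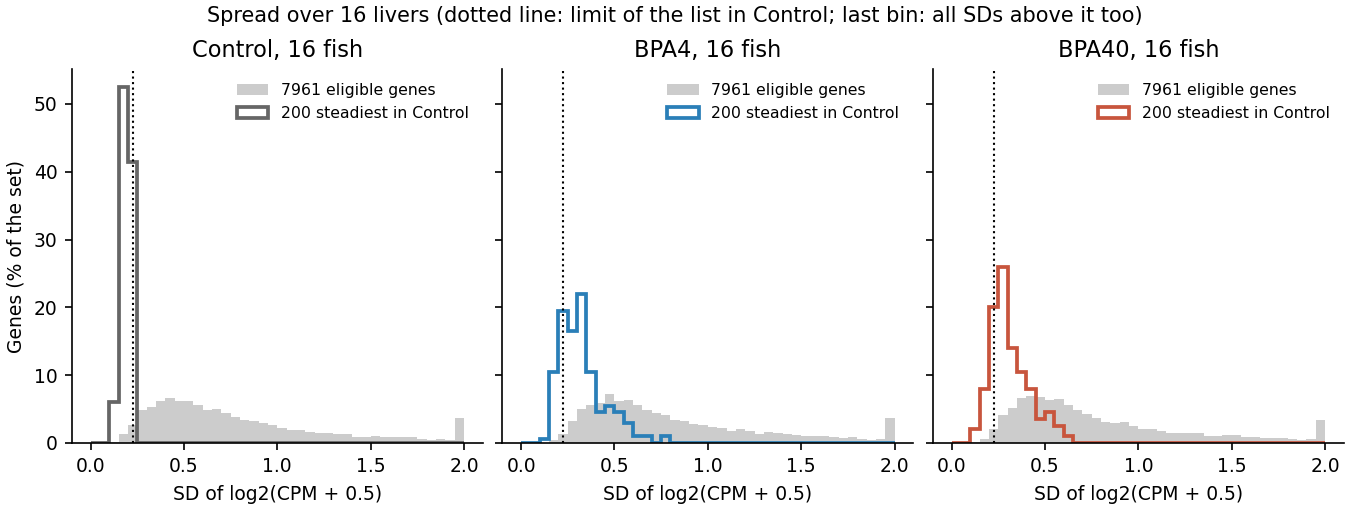
Distribution of the SD of log2(CPM + 0.5) over 16 livers of Control, BPA4 and BPA40 fish (x axis, log2 units) as a percent of genes (y axis), for the 200 members (outline) and the 7961 eligible genes (grey); the dotted line is the upper limit of the list in Control, an SD of 0.225. The outline sits at the low end of the grey distribution in all 3 panels and is wider in BPA4 (median 0.309) and BPA40 (median 0.290) than in Control (median 0.193), where it was chosen.

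Ranks within the list carried over little from Control to BPA fish. Over the 7961 eligible genes the SDs in BPA40 and Control fish were related with a Spearman rho of 0.838, and those in BPA4 and Control with 0.837. Over the 200 members, whose Control SDs span little by choice, the values with Control were 0.123 for BPA40 and 0.0312 for BPA4. For BPA40 with BPA4 the value was 0.583 over the members and 0.904 over the eligible genes. These are descriptions across genes, which share the libraries and their depth. Abundance made little difference, since, with the list split by Control CPM into 4 parts of 50 genes, the median SD of a part lay between 0.280 and 0.303 in BPA40 and between 0.299 and 0.318 in BPA4 fish.

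The genes with the smallest Control SD spanned wider ranges in BPA fish, a direction that picking the smallest Control SDs gives in part. GSONMT00001775001 had 53.5 to 72.1 CPM in Control fish (median 62.0), 46.9 to 74.3 CPM in BPA4 fish (median 60.6) and 42.9 to 72.8 CPM in BPA40 fish (median 59.6). The ranges overlapped almost wholly, and the low ends in BPA fish came from F2 112 dpf BPA4 replicate 1 and F1 365 dpf BPA40 replicate 3. GSONMT00075096001 had 61.9 to 87.2 CPM in Control, 34.3 to 92.1 CPM in BPA4 and 40.2 to 90.8 CPM in BPA40 fish, with both lows in replicate 1 of F2 112 dpf. GSONMT00021030001 had 16.4 to 23.1 CPM in Control, 14.9 to 22.9 CPM in BPA4 and 14.4 to 26.5 CPM in BPA40 fish.

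The members with the smallest SD over the 32 BPA fish were GSONMT00010169001 (0.149), GSONMT00077786001 (0.153) and GSONMT00056238001 (0.162). GSONMT00010169001 had 151 to 237 CPM in Control fish (median 182), 134 to 216 CPM in BPA4 fish (median 185) and 169 to 242 CPM in BPA40 fish (median 187). GSONMT00077786001 had 12.5 to 23.0 CPM in Control, 13.5 to 20.6 CPM in BPA4 and 14.6 to 21.1 CPM in BPA40 fish. GSONMT00077786001 stayed within its Control range in all 32 BPA fish, while GSONMT00010169001 left it with 134 CPM in F2 112 dpf BPA4 replicate 1 and with 242 CPM in F1 140 dpf BPA40 replicate 0.

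GSONMT00056238001 and GSONMT00010169001 were also among the 5 genes picked in all 3 treatments with the smallest largest SD. In F2 112 dpf fish GSONMT00056238001 had 52.3, 52.5, 52.3 and 53.0 CPM in BPA4, against 64.5, 50.2, 50.3 and 43.6 CPM in Control. The other three were GSONMT00069392001, with 32.4 to 51.8 CPM in Control, 32 to 49.4 CPM in BPA4 and 33.6 to 48.5 CPM in BPA40 fish, GSONMT00022685001, with an SD of 0.173 in Control, 0.161 in BPA4 and 0.193 in BPA40 fish, and GSONMT00076718001, with an SD of 0.189 in Control, 0.202 in BPA4 and 0.192 in BPA40 fish.

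The members with the largest SD over the 32 BPA fish were GSONMT00075793001 (0.646), GSONMT00028229001 (0.645) and GSONMT00043886001 (0.633), and in each the lowest value of either treatment lay at F2 112 dpf. There GSONMT00075793001 had 74.8, 92.4, 93.3 and 73.2 CPM in Control fish, 84.5, 12.3, 50.1 and 62.5 CPM in BPA4 fish and 30.9, 36.0, 97.6 and 39.8 CPM in BPA40 fish. In BPA40 fish 3 of 4 values lay below the lowest Control fish, and the groups overlapped through replicate 2.

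GSONMT00028229001 had 14.0, 16.2, 13.9 and 13.5 CPM in Control fish of F2 112 dpf, 11.6, 1.92, 9.54 and 8.77 CPM in BPA4 fish and 7.11, 2.65, 16.5 and 13.2 CPM in BPA40 fish. All 4 BPA4 fish were below all Control fish. The lowest value rests on 12 fragments. GSONMT00043886001 had 151, 228, 171 and 176 CPM in Control fish, 144, 25.5, 84.2 and 126 CPM in BPA4 fish and 79.7, 94.3, 162 and 101 CPM in BPA40 fish. Again no BPA4 fish reached the lowest Control fish, whereas 1 BPA40 fish did. These genes were picked for their spread, so the separation is a description, and none of them passed the test of levels at F2 112 dpf.

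**Figure D2:**
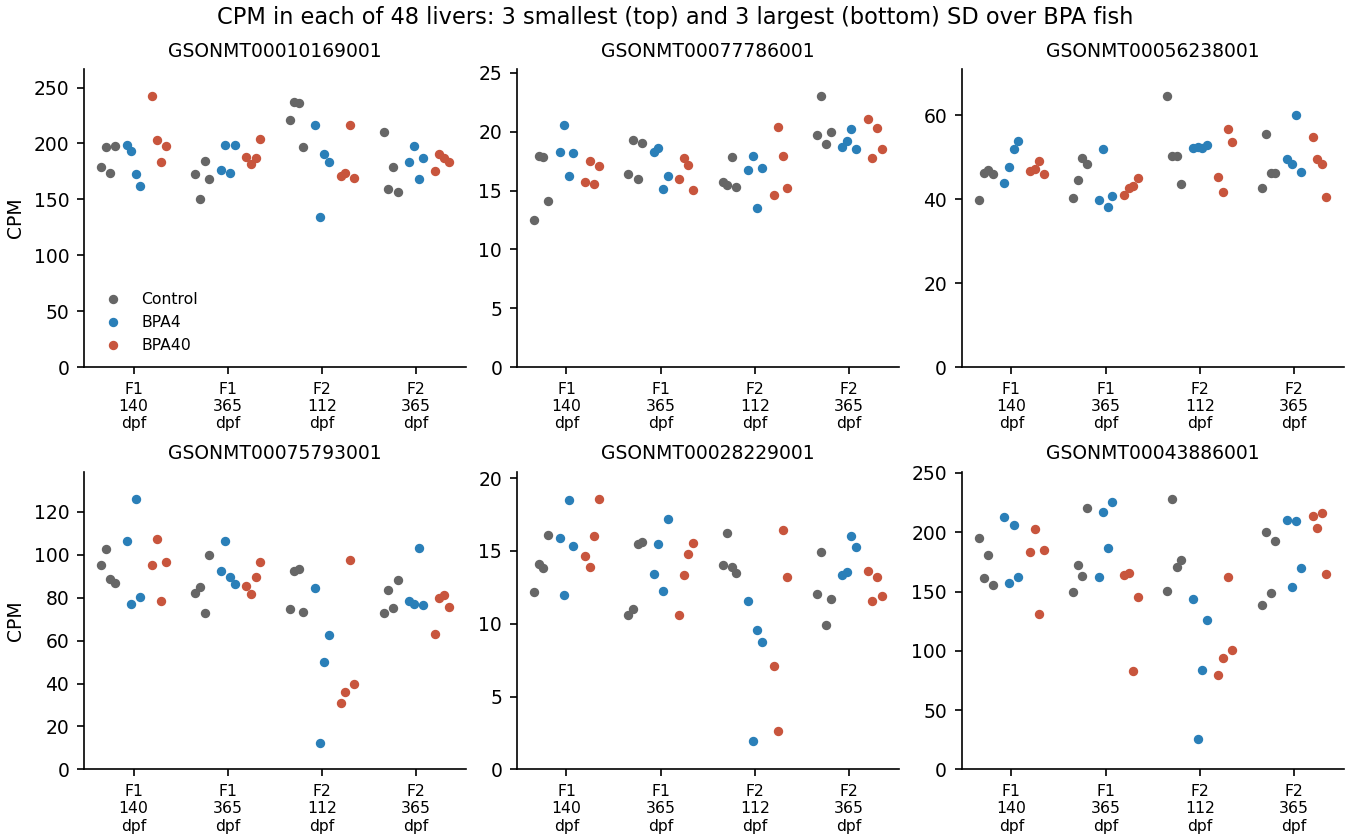
CPM of 6 members in each of the 48 livers by time point (x axis) and treatment (colour), with the 3 smallest (top) and 3 largest (bottom) SDs over the 32 BPA fish. The top genes stayed within about the same band at every time point, and the bottom genes had low values in F2 112 dpf BPA fish, down to 1.92 CPM for GSONMT00028229001.

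The spread was largest among F2 112 dpf BPA fish. Among the 4 fish of a group the members had there a median SD of 0.164 (Control), 0.362 (BPA4) and 0.324 (BPA40), while all eligible genes had 0.329 in Control, 0.509 in BPA4 and 0.480 in BPA40. The members' medians for Control, BPA4 and BPA40 were 0.128, 0.177 and 0.174 in 140-day F1 fish, and 0.142, 0.168 and 0.220 in F1 fish of 365 dpf. In the oldest F2 fish these medians were 0.147, 0.167 and 0.148, in the same order of treatments. In all eligible genes, in this order, the medians were 0.235, 0.326 and 0.309 at F1 140 dpf. At F1 365 dpf they were 0.290, 0.257 and 0.337, and at F2 365 dpf 0.318, 0.262 and 0.235. The members were thus steadier than the eligible genes in each BPA group, while their low SD in the Control groups is given by the choice. At F2 365 dpf the members were about as even in BPA as in Control fish, whereas the eligible genes had lower median SDs in BPA fish.

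Single fish stood apart. The median deviation of the 200 genes from their Control mean was within 0.114 of 0 in each Control fish, on the log2 scale. It was -0.50 in F2 112 dpf BPA4 replicate 1, -0.48 in F2 112 dpf BPA40 replicate 1, -0.30 in F1 365 dpf BPA40 replicate 3 and -0.27 in F2 112 dpf BPA40 replicate 0. Deviations of more than 1 were found for 52, 34, 0 and 11 members in these fish. The 3 F2 112 dpf fish also had the lowest TMM factors of all libraries (0.580, 0.552 and 0.613), F2 112 dpf BPA4 replicate 1 was the shallowest library and had the fewest detected genes (14633 with 5 fragments or more), and the part of depth and composition in the low values was not tested. Without these 3 fish the median SD was 0.238 in BPA40 and 0.25 in BPA4, and over the 12 fish of the other time points it was 0.228 in BPA40 and 0.219 in BPA4.

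**Figure D3:**
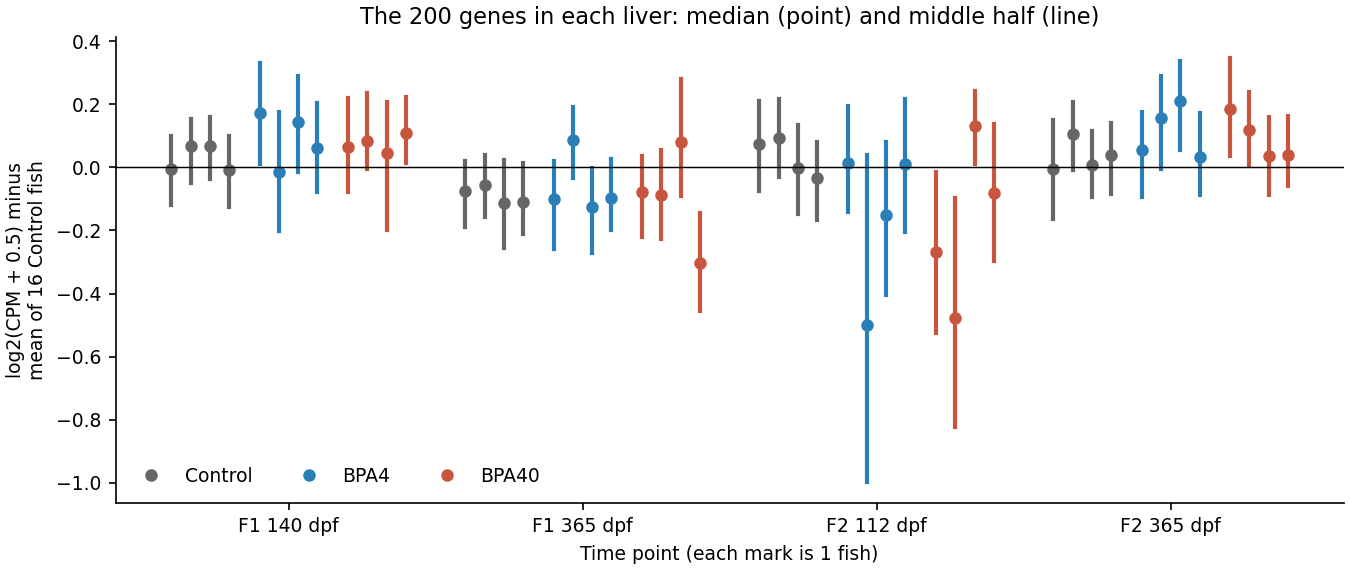
Median (point) and middle 50% (line) of the deviation of the 200 members from their mean over the 16 Control fish, on the log2(CPM + 0.5) scale (y axis), for each of 48 livers by time point (x axis) and treatment (colour). Control fish lie within 0.114 of 0, and the lowest fish are BPA4 replicate 1 (-0.50) and BPA40 replicate 1 (-0.48) of F2 112 dpf.

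For each member the range over the 16 Control fish was also used as a yardstick, which is narrow by choice. A BPA40 fish had between 70 and 188 members inside this range (median 165.5), and a BPA4 fish between 63 and 184 (median 158). For all eligible genes the share inside was 57.4% to 95% in BPA40 and 51.5% to 97.1% in BPA4 fish. All 16 BPA40 fish were inside for 8 members (24.9% of eligible genes) and all 16 BPA4 fish for 7 (22.1% of eligible genes), and all 32 BPA fish for 1 member. Of 3200 values, 439 fell below and 307 above the Control range in BPA40 fish, and 380 below and 375 above in BPA4 fish. Without the 3 fish, 20 members had every BPA40 fish inside (41.3% of eligible genes) and 13 every BPA4 fish (34.4% of eligible genes). Of 2800 values in BPA40 fish 235 then fell below and 295 above, and of 3000 in BPA4 fish 263 below and 355 above.

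In levels, as distinct from spread, BPA40 and Control livers were close for nearly all members. In a joint model of 48 fish with time point as a term (edgeR's quasi-likelihood test with Benjamini-Hochberg adjustment over 26903 genes), 0 members were called at an adjusted p under 0.05 for BPA40 against Control, where 0.0112% of all genes tested were called, and DESeq2 called 0 members and 17 genes in all. The edgeR count was also 0 without the 3 fish, here and in both comparisons of treatments that follow. At an unadjusted p under 0.05 there were 15 members, 1 higher and 14 lower in BPA40, where 7.33% of all genes had such a p. This count was 12 to 31 when each fish was left out in turn, and it moved by over 1.5 times in 26 of these 48 fits, to 31 without F1 365 dpf Control replicate 0 and to 30 without F1 140 dpf Control replicate 2 or F2 112 dpf BPA40 replicate 2. Without the 3 fish it was 26, and with DESeq2 30, so no reading of the members against all genes is made from it. The members' median log2 fold change was -0.06 (range -0.27 to 0.20), against 0.003 in all genes.

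A p that misses the threshold does not show equal levels, but the intervals bound the difference. The whole 95% interval of the log2 fold change lay within ±0.5 for 198 members, against 36.8% of all genes tested, and reached a median of 0.18 to either side of the estimate in the members and 0.43 in all genes. All genes tested include many of lower CPM. Of the 7761 eligible genes outside the list, 5218 had their interval within ±0.5. The part of the spread that comes from Control fish was small by choice. The members beyond the bound were GSONMT00075793001 (log2 fold change -0.24, interval -0.502 to 0.02) and GSONMT00043886001 (-0.25, interval -0.53 to 0.02), both described above for their low values at F2 112 dpf. The smallest p belonged to GSONMT00022435001, with a log2 fold change of -0.22 (SE 0.08, edgeR adjusted p = 0.512).

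BPA4 livers were set against the Control livers, which are the same 16 fish in both comparisons. Again 0 members were called by edgeR, where 0.00372% of all genes were, 0 by DESeq2, which called 1 gene in all, and 4 reached an unadjusted p under 0.05 (1 higher and 3 lower in BPA4), where 4.17% of all genes did. With each fish left out this count was 2 to 9, and 7 with DESeq2. The median log2 fold change was -0.004 in the members and -0.02 in all genes. Within ±0.5 lay the intervals of 198 members, against 39.1% of all genes and 5432 of the 7761 eligible genes outside the list. The exceptions among the members were GSONMT00004058001 (0.32, interval 0.06 to 0.58, edgeR adjusted p = 0.999991) and GSONMT00025817001 (-0.27, interval -0.52 to -0.02). GSONMT00004058001 had 20.1, 46.6, 16.6 and 22.1 CPM in BPA4, against 18.4, 17.9, 13.8 and 13.9 CPM in Control fish of F2 112 dpf, and its highest value belonged to BPA4 replicate 1, the fish in which most members were low. Without that fish its log2 fold change was 0.19, and the intervals of all 200 members lay within ±0.5 in the comparisons of BPA4 and of BPA40 with Control.

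The comparison of the 2 doses used no Control fish, so no value behind the choice enters it. The members were still chosen for a low spread, and their lower spread in BPA fish narrows their intervals here. These reached a median of 0.19 to either side of the estimate, against 0.42 in all genes. Of the members, 0 were called by edgeR for BPA40 against BPA4 over the 32 BPA fish, where 0.019% of 26296 genes were, and 15 reached an unadjusted p under 0.05 (4 higher and 11 lower in BPA40), where 9.76% of all genes did. That count was 12 to 21 with each fish left out, 24 without the 3 fish and 33 with DESeq2. The intervals of 199 members lay within ±0.5, against 35.6% of all genes and 5028 of the 7761 eligible genes outside the list. The exception among the members was GSONMT00004058001 (-0.26, interval -0.54 to 0.02). DESeq2 called 2 members, where it called 0.652% of genes: GSONMT00022435001 (log2 fold change -0.30, DESeq2 adjusted p = 0.00804) and GSONMT00081144001 (-0.21, DESeq2 adjusted p = 0.0478).

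GSONMT00022435001 had 33.2 to 62.6 CPM in BPA40 fish (median 48.0) and 42.2 to 66.5 CPM in BPA4 fish (median 55.1), so the doses overlapped. At F1 140 dpf it had 43.1, 47.8, 34.0 and 48.1 CPM in BPA40 and 54.3, 51.7, 56.2 and 52.2 CPM in BPA4 fish, which did not overlap. Its highest BPA40 value lay at F1 365 dpf and its lowest BPA4 value at F2 112 dpf. The gene was named for its small p and is shown by fish at this age alone, so the separation is a description. The edgeR estimate of the difference was -0.29 (interval -0.44 to -0.13, adjusted p = 0.195), and over the edgeR alternatives, fish left out in turn among them, its adjusted p lay between 0.113 and 0.371, so the call was made by DESeq2 alone.

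**Figure D4:**
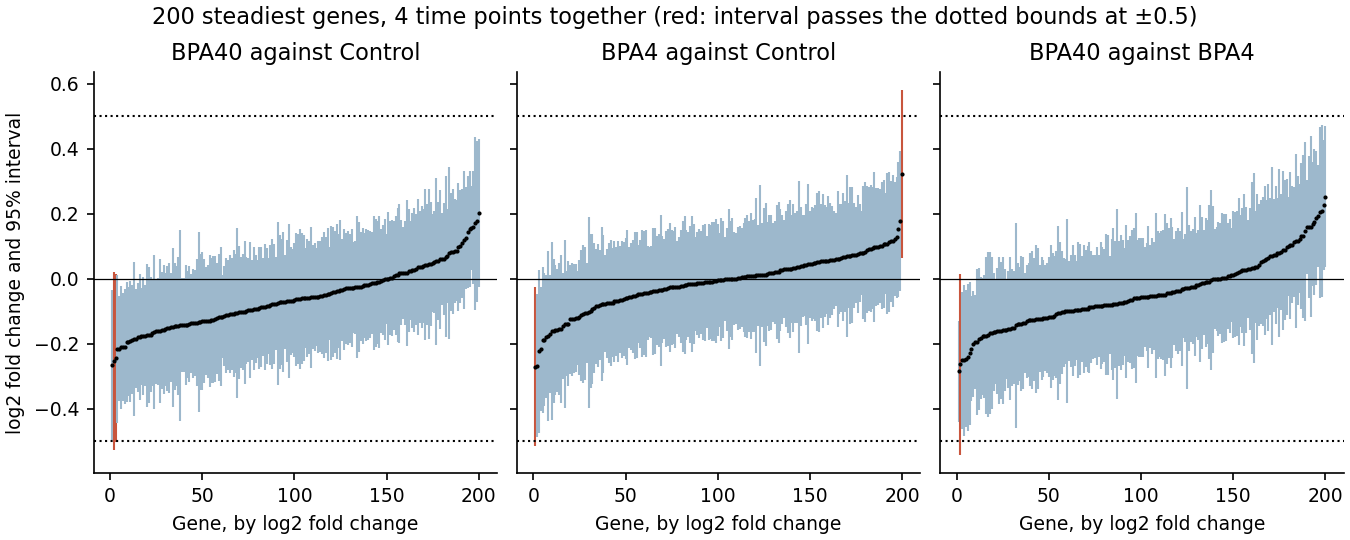
log2 fold change (points) and 95% interval (lines) from edgeR for each of the 200 members, ordered by fold change (x axis), for BPA40 against Control, BPA4 against Control and BPA40 against BPA4 over 4 time points; dotted lines mark ±0.5 and red intervals pass them. Intervals of 198, 198 and 199 members lie within the bounds.

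Within single time points the intervals were wider and closeness is not shown in the same way. Of the 200 members, 0 were called by edgeR and 0 by DESeq2 in each of the 8 comparisons of a BPA treatment with Control. DESeq2 called 103, 29, 20 and 536 of all genes for BPA40, by time point from F1 140 dpf to F2 365 dpf, and 56, 3, 123 and 588 for BPA4. For BPA40 the members at an unadjusted p under 0.05 numbered 4 in the younger F1 fish, where 0.00475% of all genes were called and 7.2% had such a p, and 6 in the older F1 fish (0% called, 7.59% with such a p). They numbered 2 in the younger F2 fish (0% called, 5.91% with such a p) and 3 in the older F2 fish (0.399% called, 11.9% with such a p). For BPA4 there were 5 in the younger F1 fish (0% called, 6.35% with such a p), 1 in the older F1 fish (0% called, 5.89%), 6 in the younger F2 fish (0% called, 10.3%) and 4 in the older F2 fish (0.0038% called, 13.8%). The smallest adjusted p of a member in these edgeR tests was 0.23, in BPA4 at F2 365 dpf. The Control fish, narrow in the members by choice, enter all these tests, so the counts are not free of the choice.

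With 4 fish a group, the members' BPA40 intervals reached a median of 0.38 and 0.33 to either side in the younger and older F1 fish. In the younger and older F2 fish they reached 0.51 and 0.37. These intervals are not adjusted for the number of genes, so differences larger than these could also go uncalled. For BPA40, the largest member log2 fold changes were 0.66 in the younger F1 fish and 0.78 in the older F2 fish, and neither was called. A member's mean over the 4 BPA40 fish was within 0.5 (log2) of the Control mean of the time point for 199 and 200 members in younger and older F1 fish and for 172 and 198 in younger and older F2 fish, against 88.9%, 86.3%, 72.1% and 80.2% of eligible genes. For BPA4 the numbers were 199, 200, 165 and 200 members in the same order, against 89.5%, 93.1%, 66.2% and 78.9% of eligible genes. The numbers at F2 112 dpf without the 3 fish were 196 for BPA40 (80.8% of eligible genes) and 188 for BPA4 (78.6%). The BPA40 means then rest on replicates 2 and 3 alone. These 3 fish were left out for their low values, so the rise is given in part by this step. With all fish, F2 112 dpf again stood apart, in members and eligible genes alike.

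Whether the treatment difference of a member changed with the time point was tested with the 6 interaction terms of a model of all 12 groups. By edgeR 0 members were called, where 0.0595% of all genes were, and 0 by DESeq2, which called 700 genes in all. With edgeR 11 members had an unadjusted p under 0.05, or 5.5% against 12.2% of all genes. This count was 6 to 15 with each fish left out, and 22 with DESeq2, where 4712 of 42784 genes had such a p. The Control fish, chosen as steady over the time points in the members, enter this test. No reading of the members against all genes is therefore made from these counts. The spread itself was compared between the doses by a Levene-type test in limma on absolute deviations from the treatment mean. Of 199 members tested 0 were called, as in all 8116 genes (0%), and 5 had an unadjusted p under 0.05 (2 with a larger and 3 with a smaller spread in BPA40), against 2.59% of all genes. The smallest limma adjusted p of a member was 0.9997, and 93 members had the higher SD in BPA40, against 41.8% of eligible genes.

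The members were chosen to be steady over both ages and both generations of Control fish. There the share of a member's variance that lay between time points had a median of 42.2%, against 75.5% in eligible genes, and in fish the choice did not use it was 39.5% in BPA40 and 42.3% in BPA4, against 66.3% and 67.3% in eligible genes. Age was then tested in the 32 BPA fish, with treatment as a term. Here the direction depended on the scaling. The TMM factors of F2 365 dpf livers were 1.02 to 1.61, and those of F2 112 dpf livers 0.552 to 0.846. A gene with the same CPM at both ages of F2 is lowered at 365 dpf by these factors. The members were chosen as steady in plain CPM, so their direction with TMM in F2 is given in part by the choice.

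For F1 365 dpf against F1 140 dpf, edgeR with TMM called 72 members, all lower at 365 dpf, where 47.6% of all genes were called and 20% were called lower. The members' median log2 fold change was -0.26, against 0.11 in all genes. Scaled by plain library totals, as in the choice of the list, 36 members were called and all were lower, where 42.7% of all genes were called and 15.3% were called lower, with a median of -0.17 in the members and 0.19 in all genes. With the size factors of DESeq2 inside edgeR (RLE), 32 members were called, 7 higher and 25 lower, where 47% of all genes were called. The members' median was below 0 under each of these scalings. Without the 3 fish of F2 112 dpf, which enter the fit but not the contrast, the count with TMM was 105, of which 1 was higher and 104 lower, where 51.5% of all genes were called.

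For F2 365 dpf against F2 112 dpf, edgeR with TMM called 178 members, all lower at 365 dpf, where 79.4% of all genes were called and 31.9% were called lower, but with plain totals it called 79, of which 71 were higher and 8 lower, where 80.8% of all genes were called and 64.1% were called higher. The members' median log2 fold change was -0.75 with TMM, -0.35 with RLE and 0.23 with plain totals, against 0.56, 0.98 and 1.5 in all genes. The members' median lay below that of all genes under each scaling, while its sign turned. A scaling moves the log2 fold changes of all genes by about the same amount, so this order is not a separate result for each scaling. Without the 3 fish the count with TMM was 176, where 76.7% of all genes were called. The direction of the calls with TMM is given in part by the choice on plain CPM.

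For F2 365 dpf against F1 365 dpf, edgeR with TMM called 7 members, all lower in F2, where 6.77% of all genes were called and 3.4% were called lower, but with plain totals it called 18, all higher in F2, where 12.4% of all genes were called and 11.4% were called higher. The members' medians were -0.12 with TMM and 0.18 with plain totals, against -0.002 and 0.30 in all genes. The count with TMM was 14 without the 3 fish, where 10.3% of all genes were called, and it was 4 without any 1 of 11 fish, namely F1 140 dpf BPA40 replicate 3, F1 365 dpf BPA4 replicates 0, 1, 2 and 3, F1 365 dpf BPA40 replicates 1 and 3, F2 365 dpf BPA4 replicates 0, 1 and 2, and F2 365 dpf BPA40 replicate 0. Generation and its separate rearing cannot be told apart.

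**Figure D5:**
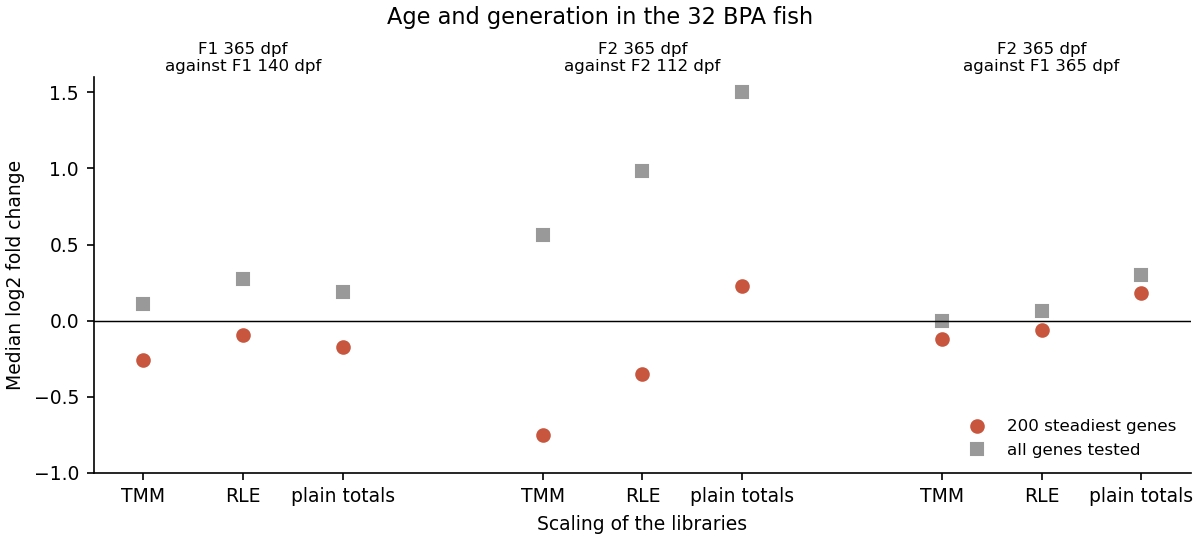
Median log2 fold change (y axis) of the 200 members (circles) and of all genes tested (squares) in 3 comparisons of time points over the 32 BPA fish, under 3 scalings of the libraries (x axis). For F2 365 dpf against F2 112 dpf the members' median is -0.75 with TMM, -0.35 with RLE and 0.23 with plain totals. It lies below the median of all genes each time, but a scaling shifts both medians by about the same amount.

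Of the members, 69 were called lower at 365 dpf in both age comparisons with TMM, where 16.4% of all genes were, and 0 higher in both, where 25.2% of all genes were. With TMM the direction in F2 is given in part by the choice, so these shared counts are not free of it. GSONMT00029468001 had 25.3, 20.9, 17.4 and 18 CPM in BPA40 fish of F1 365 dpf, against 31.7, 39.2, 32.5 and 45.0 CPM in those of F1 140 dpf. In BPA4 fish it had 19.3, 26.1, 26.8 and 18.9 CPM at F1 365 dpf, against 44.8, 44.3, 43.0 and 42.0 CPM at F1 140 dpf. The ages did not overlap in either treatment, and its edgeR log2 fold change was -0.98 (SE 0.14).

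In F2, GSONMT00029468001 had 25, 24.6, 19.7 and 23.5 CPM in BPA40 fish at 365 dpf, against 27.9, 20.2, 25.8 and 25.5 CPM at 112 dpf. These overlapped, and the log2 fold change of -1.08 with TMM was -0.09 with plain totals, where the gene was not called. GSONMT00003534001 had 35.0 to 38.9 CPM at F1 365 dpf, against 53.3 to 58.2 CPM at F1 140 dpf, in BPA40 fish. In BPA4 fish it had 33.0, 44.0, 34.6 and 36.2 CPM at F1 365 dpf, against 57.1, 50.9, 43.8 and 55.2 CPM at F1 140 dpf, and 1 fish of each age overlapped. Its log2 fold change was -0.62 (SE 0.11), and in F2 its log2 fold change of -1.13 with TMM was -0.15 with plain totals. In F2 the calls of both genes were lost with plain totals and all fish.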

How the data were processed

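Liver RNA of 48 rainbow trout was sequenced as stranded poly(A) libraries. Per the labels and the study's methods, the authors aligned reads to the Genoscope trout genome with TopHat2 2.1.0 and Bowtie2 2.2.6 and deposited, in 1 table per time point, raw fragment counts per gene with the Cufflinks suite's FPKM beside them. The FPKM values deposited by the authors were used only for levels per length and for 1 alternative. The genes' status column served to leave out 17 genes marked HIDATA, and 8 columns with scaled forms of the same fragments (2 in each of the 4 tables) were not used.

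CPM was computed from the counts with plain library totals. The 200 genes and all lists were chosen with earlier results of these data known. Counts were tested with edgeR 4.0.16 (TMM, filterByExpr, quasi-likelihood test, Benjamini-Hochberg adjustment over all genes tested, threshold 0.05), with DESeq2 1.42.0 as an alternative, and spread with limma 3.58.1, in R 4.3.3. Figures were drawn with matplotlib 3.10.9 in Python 3.11.15. The tests were run on simulated data first. The labels give separate fish but no pairing, so same-numbered fish were not treated as pairs in the main tests. Depth was 6244010 to 18668663 fragments per fish. Counting error therefore adds an SD of about 0.08 (median 0.0817 in Control fish) to a member's log2 values. PCR copies are included in the counts.

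Genes were named by a fixed rule: the 3 smallest Control SDs, the 2 genes on each side of the list's edge, the 3 smallest and 3 largest SDs over BPA fish, the smallest p or the called genes of each comparison, the highest and lowest FPKM, and 5 genes picked in all 3 treatments. The called genes of F2 365 dpf against F1 365 dpf are given as a count, and of those called in both age comparisons 2 are named. GSONMT00025817001 and GSONMT00081144001 were named after their values were seen. Planned lists of named genes and markers were not analysed here. Alternatives were no TMM, RLE factors, no filter on low counts, DESeq2, a replicate block, each fish left out, and, for the choice of genes, pseudocount 1, minima of 5 and 20 CPM, no gene dropped, HIDATA genes kept in the total, FPKM, TMM-scaled CPM and time point means removed. Leaving out together the 3 fish of F2 112 dpf in which members lay lowest, using the other 3 time points, TMM-scaled CPM with the list as chosen and the members' median removed from each fish were added after seeing the data.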

Additional observations from a re-analysis of the deposited data

Results flagged for a closer look

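A gap between 1 fish and the other three of its group that was large against the group's range was found in 5 of 44 groups of 4 values. Chance gives about 1 in 20 for independent groups that were not picked. These 44 share fish and members, and some hold genes picked for their spread or p, so that rate is not a fair yardstick here. In F2 112 dpf BPA4 the members' median absolute deviation from the Control mean was 0.585 in replicate 1, against 0.176 to 0.231 in the other fish. In F2 112 dpf Control it was 0.117 in replicate 3, below 0.139 to 0.143 in the other fish. In F1 365 dpf BPA4 the members' median shift from the Control mean was 0.0868 in replicate 1, against -0.124 to -0.0972 in the other fish. In F1 140 dpf BPA40 replicate 2 had 143 members inside the Control range, against 169 to 173 in the other fish. GSONMT00075793001 had 97.6 CPM in F2 112 dpf BPA40 replicate 2, against 30.9 to 39.8 CPM in the other fish, so there the fish nearest to Control was the one apart. The causes were not tested.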

How the results depend on the processing

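Of 818 alternative values of the main results, all counts of members or median SDs, 783 stayed within 1.5 times the count or within the spread, and 35 moved. No direction was scored for these values, and many were counts of 0 that stayed 0. The causes were not tested. With DESeq2, 2 members were called for BPA40 against BPA4. For F1 365 dpf against F1 140 dpf the count was 32 with RLE (47% of all genes called) and 36 with no TMM (42.7%). It was 47 with DESeq2, which called 14259 genes in all. For F2 365 dpf against F2 112 dpf it was 116 with RLE (21334 of 26296 genes called) and 79 with no TMM (80.8% of all genes called). With no TMM and the 3 fish left out it was 66, where 21860 of 27858 genes were called. For F2 365 dpf against F1 365 dpf it was 3 with RLE (1764 of 26296 genes called) and 18 with no TMM (12.4% of all genes called). With no filter on low counts it was 4 (1769 of 42138 genes called). Without the 3 fish it was 14 (10.3% of all genes called), and without them and with no TMM 39 (5557 of 27858 genes called). When each fish was left out it was 4 to 8, where 1090 to 2322 genes were called. The members' median log2 fold change turned from negative to positive with no TMM: to 0.23, and to 0.10 without the 3 fish, for F2 365 dpf against F2 112 dpf, and to 0.18, and also to 0.18 without the 3 fish, for F2 365 dpf against F1 365 dpf.

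The median SD in BPA4 was 0.225 for the 200 genes chosen anew with time point means removed. For the list as chosen it was 0.25 without the 3 fish, 0.219 over the other time points and 0.375 on TMM-scaled CPM. When each fish was left out the median SD was 0.25 to 0.319. In BPA40 the same values were 0.217, 0.238, 0.228, 0.388 and 0.256 to 0.298, and 0.249 with the members' median removed from each fish. The lowest 10% in BPA4 held 84 of the 200 genes chosen anew with time point means removed. In BPA40 it held 87 members on TMM-scaled CPM with the list as chosen. When each fish was left out, intervals within ±0.5 numbered 196 to 200 for BPA40 and 195 to 200 for BPA4 against Control.

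Deviations of same-numbered fish correlated from -0.387 to 0.392, and 12 of 48 pairs correlated above 0.1. Fish with different numbers were not compared, so these values cannot decide whether the numbers pair the fish. With the replicate block 0 members were called in each comparison of treatments over the 4 time points. Of all genes, 0 were called for BPA40 and 0 for BPA4 against Control, and 3 for BPA40 against BPA4. In the 3 comparisons of time points 66, 172 and 7 members were called, where 12440, 21173 and 1622 of 26296 genes were. Members with intervals within ±0.5 numbered 197, 197 and 199 in the comparisons of treatments. Of the 7761 eligible genes outside the list, 5016, 5250 and 5056 had such intervals. Depth limits single values most in the shallowest fish, where the lowest member had 12 fragments.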
